A study of Arabidopsis thaliana with 6 samples.

Results

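The plastid-encoded RNA polymerase genes rpoA, rpoB, rpoC1 and rpoC2 were taken as the probe sets that list 1 gene of the plastid genome with one of these 4 symbols. Each gene had 1 probe set, so the members are 4 of the 22746 probe sets tested and 4 of the 69 plastid-encoded genes measured. Signals came from Affymetrix ATH1 arrays, which carry short oligonucleotide probes grouped into probe sets, hybridised with RNA of whole Arabidopsis thaliana seedlings. Both groups were in the Col-0 background, one wild type (WT) and one carrying mutations in YAF9A and YAF9B (yaf9a yaf9b), with 3 arrays per genotype from independent biological replicates. All seedlings were kept untreated on agar for 20 days, at 22 °C in short days (8 h light, 16 h dark), and were collected at ZT8, when the light ended. The labels name no alleles, and each sample was about 250 mg of seedlings, so it pooled plants and organs. YAF9A and YAF9B encode subunits of chromatin complexes that acetylate histones and deposit the histone variant H2A.Z. No probe set was listed under either locus (0 for the 2 genes), so the targeted transcripts did not check the genotype labels. Median log2 signals of the arrays ran from 5.99 to 6.06, and the number of arrays limits the precision of every value.

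Chloroplasts transcribe their genome with 2 kinds of RNA polymerase. The plastid-encoded polymerase (PEP) resembles the bacterial enzyme and transcribes mainly genes for photosynthesis. Its core consists of the alpha subunit (rpoA), on which the enzyme assembles, the beta subunit (rpoB), and the beta' and beta'' subunits (rpoC1 and rpoC2), which correspond to the parts of the single bacterial beta' subunit. Beta and beta' together form the catalytic centre. Nucleus-encoded sigma factors direct PEP to promoters, and further nucleus-encoded proteins attach to the core. The nucleus also encodes a polymerase of the phage type (NEP) that transcribes the operon rpoB, rpoC1, rpoC2, whereas rpoA lies in a cluster of ribosomal protein genes.

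The comparison asked whether transcripts of the polymerase core differed between yaf9a yaf9b and WT seedlings. All 4 genes had a lower mean signal in the mutant, by 0.21 (rpoA), 0.25 (rpoB), 0.44 (rpoC2) and 0.54 (rpoC1) on the log2 scale, but none passed the test across all probe sets (limma, Benjamini-Hochberg adjusted p under 0.05). The nearest was rpoC1, with an adjusted p of 0.0562. In the same test 13.1% of all probe sets were called, 6.61% as lower and 6.52% as higher in the mutant, so a count of 0 of 4 did not set the polymerase genes above the background. At an unadjusted limma p under 0.05, 1 of the 4 was lower and 0 were higher, against 14.4% of all probe sets called lower. In 3 of the 4 every mutant array lay below every WT array, as in 15.9% of all probe sets and 42 of the 65 other plastid-encoded genes. A mean below WT, of any size, was found for 48.3% of all probe sets and for 64 of those 65 genes. In whole seedlings, fewer green cells, fewer plastids per cell and less RNA per plastid cannot be told apart.

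The gene of the beta' subunit, rpoC1, had signals of 8.58, 8.23 and 8.42 in WT arrays 1, 2 and 3 and of 7.55, 8.05 and 8.01 in mutant arrays 1, 2 and 3 (log2). The genotypes did not overlap, and mutant array 1 was the lowest, 0.86 below the WT mean. The means were 8.41 ± 0.175 in WT and 7.87 ± 0.278 in the mutant (SD, n = 3 arrays each, as for all means here). The difference was -0.54 ± 0.154 (log2 change ± SE, mutant minus WT), or 1.45-fold lower, with a 95% interval from -0.89 to -0.19. Its unadjusted limma p was 0.00786, and the largest unadjusted p that passed adjustment was 0.00656. The change lay at the 3.97th percentile of all probe sets, counted from the most negative. Leaving out 1 array at a time gave changes from -0.63 to -0.38, the smallest without mutant array 1 (adjusted p = 0.112). The limma adjusted p then ran from 0.0567 to 0.154, the highest without WT array 1. The call was made with a trended, robust variance model (adjusted p = 0.0343), with array quality weights (0.0469) and without dim probe sets (0.0464). It was not made after cyclic loess (0.068) or median centring (0.078), without _s_at and _x_at probe sets (0.054) or with a replicate block (0.141).

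The gene of the beta'' subunit, rpoC2, had signals of 6.97, 7.66 and 6.91 in WT and of 6.54, 6.83 and 6.86 in the mutant (log2, arrays 1 to 3). WT array 2 stood 0.48 above the WT mean, whereas the other two WT arrays lay just above the highest mutant array. The means were 7.18 ± 0.417 and 6.74 ± 0.177. The change of -0.44 ± 0.199 (1.35-fold lower, 95% interval -0.90 to 0.02) had a limma adjusted p of 0.202. Its SE was larger than that of most probe sets, at percentile 95.2. Without WT array 2 the change was -0.20 (adjusted p = 0.411), the smallest change when any 1 array was left out.

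The gene of the beta subunit, rpoB, had signals of 3.42, 3.86 and 3.61 in WT and of 3.40, 3.38 and 3.36 in the mutant (log2). The genotypes were separate by only the distance from 3.40 to 3.42, and the mutant arrays were nearly equal (SD 0.02, against 0.221 in WT). The change was -0.25 ± 0.118 (1.19-fold lower, 95% interval -0.52 to 0.02, limma adjusted p = 0.216). Without WT array 2 it was -0.14 (adjusted p = 0.481). The probe set was dim, at the 14.5th percentile of mean signal. Among probe sets at or below the 20th percentile, 0.922% were called in either direction, against 16.2% of the brighter ones, so calls were rare at this signal. Signals of different probe sets depend on their probes and do not rank the transcripts of the 4 genes by amount.

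The gene of the alpha subunit, rpoA, had signals of 12.58, 12.65 and 12.40 in WT and of 12.32, 12.27 and 12.41 in the mutant (log2). It was the only member whose genotypes overlapped, since mutant array 3 lay above WT array 3. The means were 12.54 ± 0.129 and 12.33 ± 0.071, and the change was -0.21 ± 0.096 (1.16-fold lower, 95% interval -0.43 to 0.01, limma adjusted p = 0.204). Its probe set was among the brightest, at the 99.4th percentile of mean signal, and its SE was at the 32.6th percentile. For rpoA, rpoB and rpoC2 the 95% interval of the change held 0, so these data show neither a fall nor equal levels.

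**Figure D1:**
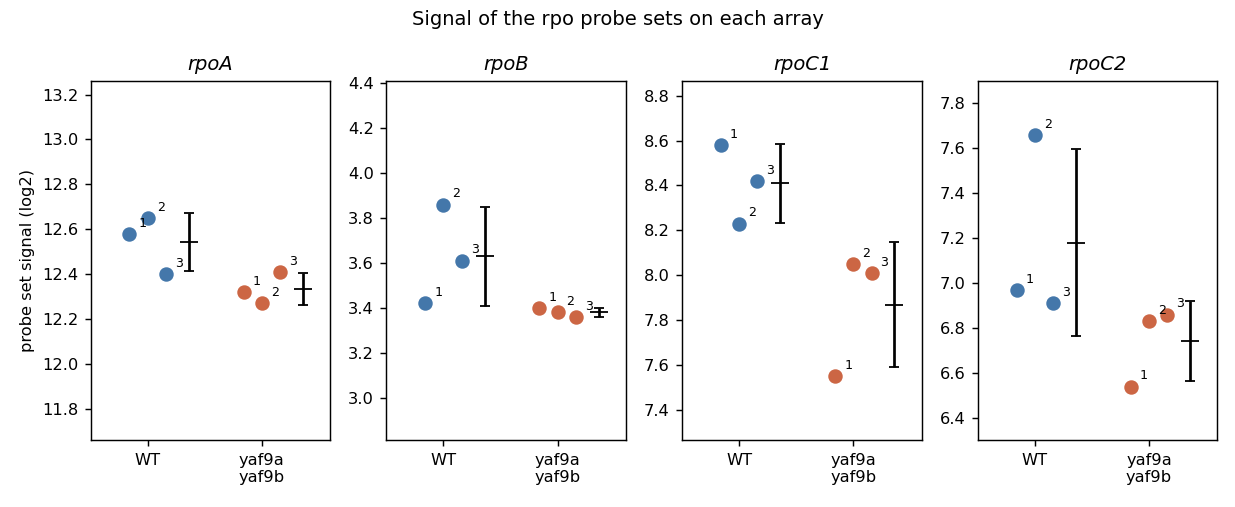
Log2 signal of the 4 rpo probe sets on each array (points, numbered by replicate) with the mean and SD of each genotype beside them; every panel spans the same range of 1.6 log2 units. Only rpoA overlaps between genotypes, and the widest spread is that of rpoC2 in WT, from 6.91 to 7.66.

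**Figure D2:**
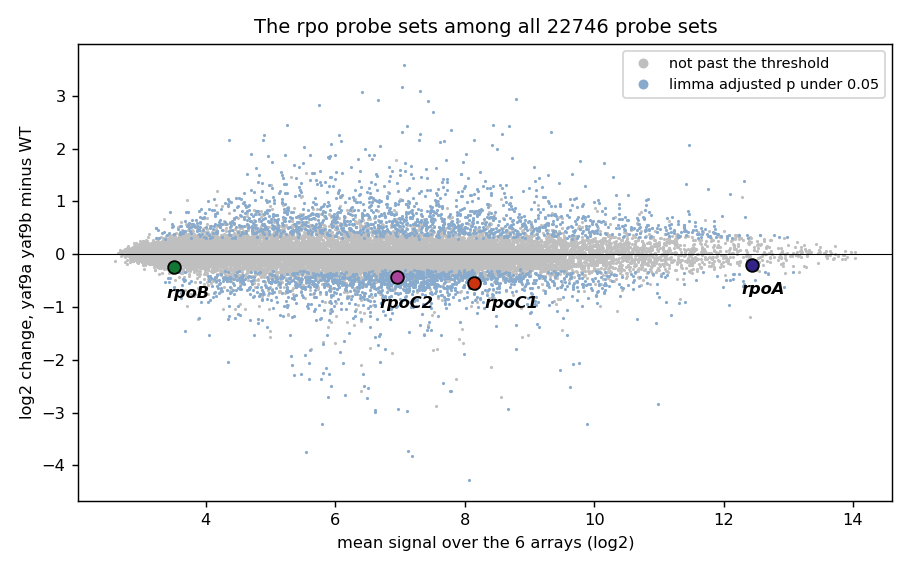
Log2 change (yaf9a yaf9b minus WT) of all 22746 probe sets against their mean log2 signal over the 6 arrays, with probe sets past a limma adjusted p of 0.05 in blue and the 4 rpo probe sets marked. The rpo points lie below 0 but within or at the edge of the uncalled probe sets, with rpoB at the dim end and rpoA at the bright end.

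The 4 members were then compared with each other by their within-array differences. Over the 6 pairs the changes differed by 0.04 to 0.33 on the log2 scale. The widest gap as reported was between rpoA and rpoC1, where rpoC1 was lower by a further 0.33 ± 0.216 (difference of the changes ± SE). With 1 array left out this gap ran from 0.18 (mutant array 1) to 0.47 (WT array 2). The widest pair was then rpoA and rpoC2 without WT array 1 (0.35), rpoB and rpoC1 without WT array 2 (0.50) or mutant array 3 (0.37), and rpoB and rpoC2 without WT array 3 (0.31). With all 6 arrays, the exact permutation test over arrays, two-sided, gave p = 0.3 for rpoA and rpoC1. Adjusted over the 6 pairs, this p was 0.75. The 6 adjusted p values ran from 0.75 to 0.9, and with 3 arrays against 3 the test cannot go below 0.1. Within the operon, rpoC1 and rpoC2 differed by -0.10 ± 0.337 (exact permutation adjusted p = 0.9), a difference that the spread between arrays covered. Across the 6 arrays rpoB and rpoC2 had a Pearson r of 0.868, rpoA and rpoC2 of 0.819, and rpoB and rpoC1 of 0.328. These 6 arrays share the difference between genotypes, and the values are descriptions only.

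Array by array, the members were set beside the median of the 65 other measured plastid-encoded genes, each gene taken as its difference from its own WT mean. That median was 0.02, 0.18 and -0.20 in WT arrays 1, 2 and 3 and -0.56, -0.38 and -0.38 in mutant arrays 1, 2 and 3 (log2). WT array 2 was the highest WT array for 44 of the 65 genes, as it was for rpoA, rpoB and rpoC2, whereas rpoC1 was lowest there. Mutant array 1 had the lowest median, and rpoC1 and rpoC2 were lowest on it too, at -0.86 and -0.64. The part of these array differences in the changes of the rpo genes was not tested beyond leaving out each array.

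**Figure D3:**
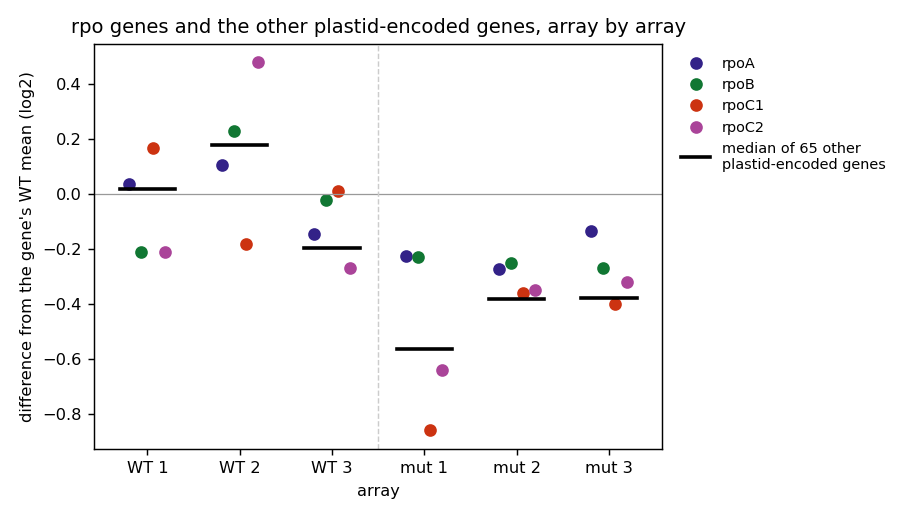
Difference of each rpo gene from its own WT mean (log2, points) on each of the 6 arrays, with the median of the 65 other plastid-encoded genes as a black bar. On mutant arrays 2 and 3 the rpo points sit at -0.13 to -0.40, and on mutant array 1 rpoC1 reaches -0.86.

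Relative to the other plastid-encoded genes, taken as each array's median deviation of the 65 from the middle of their genotype means, rpoA was higher in the mutant by 0.22 ± 0.077 and rpoB by 0.18 ± 0.136 (log2 difference ± SE; a comparison chosen after the data were seen). With 1 array left out, rpoB ran from 0.10 (WT array 1) to 0.24 (WT array 3). For rpoC2 the difference was -0.003 ± 0.158 and for rpoC1 -0.11 ± 0.208. On this relative scale rpoA lay between -0.19 and -0.06 in WT and between -0.005 and 0.225 in the mutant, so its genotypes did not overlap. The exact permutation p-values, two-sided, were 0.1 for rpoA, which is the smallest this design allows, 0.3 for rpoB, 0.9 for rpoC2 and 0.6 for rpoC1. Adjusted over the 4 genes they were 0.4, 0.6, 0.9 and 0.8. Since this test cannot go below 0.1, no gene could have passed the threshold used for the limma calls, whatever its values. The test therefore cannot decide whether any of the 4 genes differed from the rest of the plastid genome. With each array's median signal of the 65 genes as the reference instead, the values were 0.023 for rpoA, -0.017 for rpoB, -0.20 for rpoC2 and -0.31 for rpoC1.

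By the limma test across all probe sets, 20 of the 65 other genes fell (30.8%) and 0 rose. Of all probe sets, 6.61% were called lower and 6.52% higher. Without mutant array 2 the number of the 65 was 8, and without mutant array 1 it was 13. The number of all probe sets called also dropped, from 2985 to 963 and 1924. The median log2 change of the 65 genes was -0.46, against -0.34 for the 4 rpo genes and 0.01 for all probe sets. In the order of changes among the 69 plastid-encoded genes, from the most negative, rpoC1 was at place 27, rpoC2 at 36, rpoB at 55 and rpoA at 60.

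The rpo genes were also read beside their neighbours in the plastid genome, in the order of protein-coding genes in RefSeq. On the side of rpoC2 the next 5 genes are rps2, of the small ribosomal subunit, and atpI, atpH, atpF and atpA, of the ATP synthase. Of these, 4 fell (limma adjusted p under 0.05), beside 30.8% of the 65 other plastid-encoded genes and 6.61% of all probe sets. The 5 changes ran from -0.94 to -0.65 with a median of -0.87. The fifth, atpI, had a change of -0.87 ± 0.257 (limma adjusted p = 0.0637) and passed without mutant array 3 (0.0493), and the call of atpF ended without mutant array 2 (0.0505). The adjoining rps2 went from 7.38, 7.50 and 7.52 in WT to 6.77, 6.77 and 6.91 in the mutant, a change of -0.65 ± 0.088 (adjusted p = 0.00447). Its SE was smaller than that of rpoC2 (0.199), and the 2 changes were not tested against each other. On the side of rpoB the next 5 genes are petN, of the cytochrome b6f complex, and psbM, psbD, psbC and psbZ, of photosystem II. The adjoining petN (-0.37 ± 0.222, adjusted p = 0.335) and psbM (-0.23 ± 0.155, adjusted p = 0.386) did not pass, and 2 of the 5 fell, psbD by 0.78 and psbC by 0.57, the latter not without mutant array 2 (limma adjusted p = 0.0589). The change of psbZ was -0.40 (adjusted p = 0.194), and it passed without WT array 3, at -0.62 (0.0167). With 1 array left out petN ran from -0.61 (WT array 1) to -0.14 (WT array 2) and psbM from -0.39 (WT array 3) to -0.10 (WT array 2), and neither passed.

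Next to rpoA on one side lie petD and petB, of the cytochrome b6f complex, then psbH, psbN and psbT, named after photosystem II. The change of the adjoining petD was -0.49 ± 0.17 (limma adjusted p = 0.104) and -0.29 without WT array 2. Of these 5 genes 1 fell, psbN by 0.91 (SE 0.182, adjusted p = 0.0175), beside 30.8% of the 65 other plastid-encoded genes. The 5 changes ran from -0.91 to -0.20 with a median of -0.49. The call of psbN ended without WT array 2 or 3 or mutant array 2 (0.0518 to 0.0751), and 0 of the 5 passed without WT array 2 or mutant array 2, against 2 after cyclic loess, with a trended, robust variance model or with array weights. On the other side, the 3 measured genes nearest to rpoA all encode proteins of the large ribosomal subunit. Of these, rpl36 fell by 0.39 and rpl16 by 0.46 (SE 0.087 and 0.112, adjusted p = 0.0236 and 0.0328), and 1 did not pass. Their calls ended without either of mutant arrays 1 and 2 or without WT array 3 (adjusted p from 0.0585 to 0.103), that of rpl36 also without WT array 2 (0.0703) and that of rpl16 without WT array 1 (0.0973). In all, 6 of 15 plastid ribosomal protein genes fell and 0 rose, against 6.61% of all probe sets called lower, with a median of -0.30, beside -0.34 for the rpo genes. The number that fell was 3 without WT array 1, 2 without mutant array 1 and 1 without mutant array 2.

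**Figure D4:**
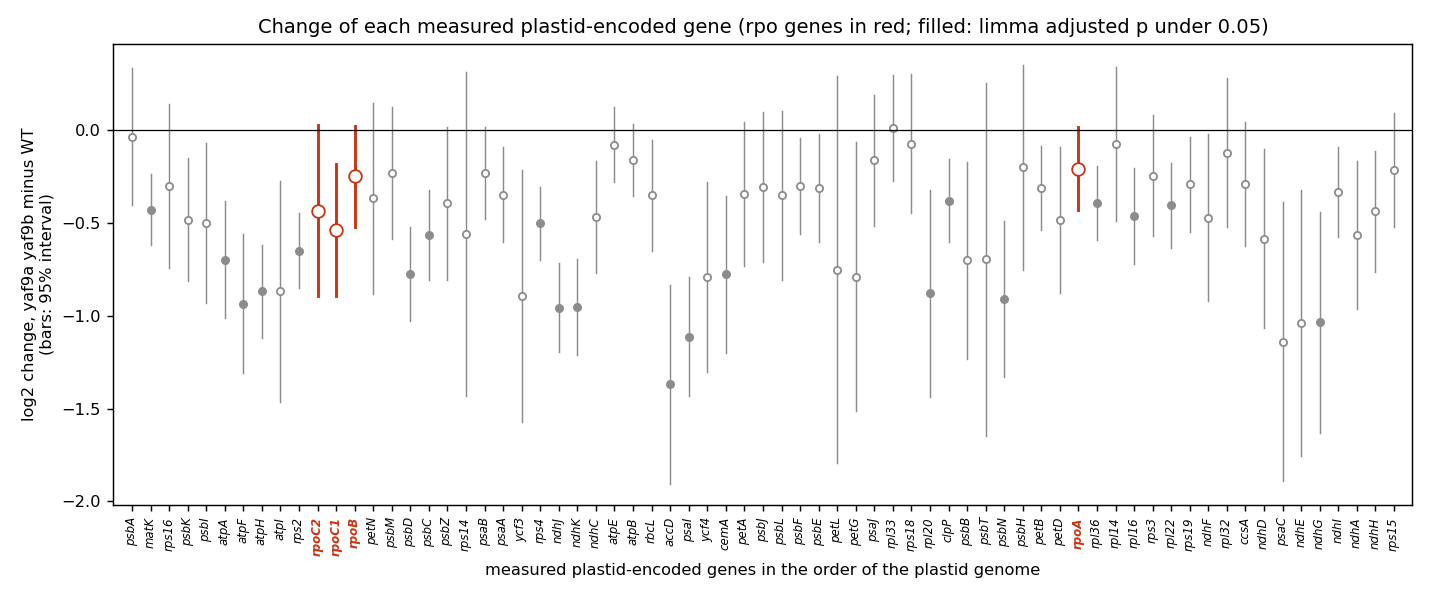
Log2 change (yaf9a yaf9b minus WT) with its 95% interval for each of the 69 measured plastid-encoded genes in the order of the plastid genome; rpo genes are red and filled points passed a limma adjusted p of 0.05. The rpo points are all open, with rpoC2, rpoC1 and rpoB next to the run from atpA to rps2, whose changes are -0.65 or lower.

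Partners of the polymerase core encoded in the nucleus were hardly measured. Of 36 such genes listed, which covered sigma factors, proteins attached to PEP, phage-type polymerases, editing factors and factors of plastid RNA decay, 3 had a probe set listing 1 gene, none of them a sigma factor or a PEP-associated protein. For OTP81, an organelle transcript processing factor, the log2 change was -0.27 ± 0.113, with an adjusted limma p of 0.164. AT3G22690, listed like OTP81 as an editing factor of rpo transcripts, had -0.22 ± 0.09 (limma adjusted p = 0.156). AT5G15700, listed as an organelle RNA polymerase of the phage type, had 0.02 ± 0.14 (limma adjusted p = 0.95). By limma, 0 of the 3 passed and 2 had an unadjusted p under 0.05, against 27.8% of all probe sets in either direction.

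The seedlings' tissue markers were measured beside these values. Of 3 measured nuclear genes of chloroplast proteins in green tissue, the antenna gene LHCB4.2 was lower, with a log2 change of -0.33 (SE 0.088) and an adjusted p of 0.0434 in limma's fit. Its call ended when any 1 array was left out (adjusted p from 0.0521 to 0.158). The other two, for Rubisco activase and a photosystem II subunit, did not pass, and the 3 changes ran from -0.33 to 0.06. Signals of the 3 green tissue genes lay between 12.16 and 13.95 over both genotypes. The 3 measured root markers ran from -0.15 to 0.07, and none passed. None of the listed seed and flower markers had a probe set listing 1 gene, so they could not be checked. The 11 genes matched to the mitochondrial genome, the other organelle genome, had a median log2 change of -0.01, within a range from -0.76 to 0.45. By limma, 2 were called lower (18.2%, against 6.61% of all probe sets) and 0 higher. Without mutant array 2, or without dim probe sets, 1 was called lower. The labelling kit starts from the poly(A) end of RNA, whereas most plastid transcripts lack the long tails of nuclear mRNA. How far a plastid probe set follows the amount of its transcript was not tested.

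The genes whose signals followed the mean of the 4 rpo genes most closely over the 6 arrays were nuclear. Among 13352 other genes with a probe set listing 1 gene, the highest Pearson r were those of GSTL3 (0.998), which encodes a glutathione transferase of the lambda class, AT1G10610 (0.996), AT2G37480 (0.996), AT1G27930 (0.996) and AT1G78200 (0.996). Of these, AT1G10610 fell by 0.54 (log2, SE 0.125), with an adjusted p of 0.0283 in limma's fit, a call that ended without WT array 1 or 2 or mutant array 1 or 2 (0.0609 to 0.0802). The change of GSTL3 was -0.25 ± 0.093 and did not pass (limma adjusted p = 0.125). Of the 20 genes most like the rpo mean, 1 was plastid-encoded, against 65 of the 13352 genes compared. Nuclear genes made up most of those compared, so a mostly nuclear list is no result about the plastid genes. The plastid-encoded gene was rpl22 of the large ribosomal subunit (r = 0.992), which fell by 0.41. Its call ended without WT array 1 or 2 or mutant array 1 or 2 (limma adjusted p from 0.0759 to 0.106). These r are the highest of many over 6 arrays that share the difference between genotypes and are given as descriptions. The genes were picked for following a mean that was lower in the mutant. Their limma p-values come from the same arrays and are no separate support.

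**Figure D5:**
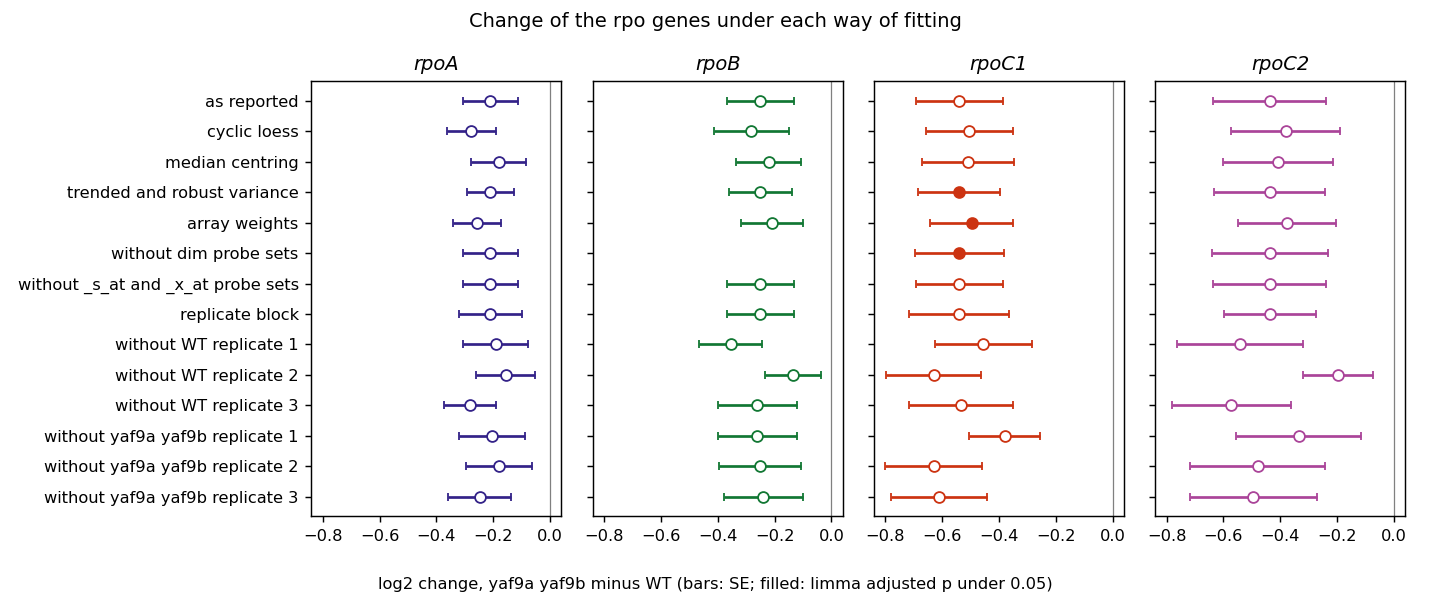
Log2 change of each rpo gene (yaf9a yaf9b minus WT, bars SE) as reported and under each alternative; filled points passed a limma adjusted p of 0.05. All points lie below 0, and only rpoC1 is filled, under the trended and robust variance model, array weights and the filter on dim probe sets.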

How the data were processed

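The deposited table holds log2 probe set signals with 2 decimals, 1 column per array. The authors made them with RMA and the affy package, per the submitters' processing notes; software versions, scan dates and batches: not given in the sources used here. Biotinylated cRNA came from 500 ng of total RNA, per the labels. Because RMA equalises the distributions of the arrays, a change common to most transcripts is lost.

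Arrays were grouped by their titles, 3 WT and 3 yaf9a yaf9b. After removal of 64 control probe sets, 22746 remained, and a moderated two-sided test was run on each (limma 3.58.1, R 4.3.3, functions lmFit and eBayes, without block or filter) with Benjamini-Hochberg adjustment over all of them. The scripts were tested on simulated data. Names came from GEO's platform annotation and the RefSeq table of assembly TAIR10.1, to which 13436 of 13513 probe sets with 1 gene matched by gene ID, and 18 more to mitochondrial genes by symbol. The members and lists were chosen with earlier results of these data known. The text names the 4 rpo genes, neighbours in the plastid genome, measured list members, and the 5 genes most like the rpo mean over the 6 arrays; psbD, psbC, psbZ, psbN and rpl22 were named after their values were seen. For same-numbered arrays, correlations of the deviations from the genotype's mean were -0.21, 0.01 and -0.32 over all probe sets. Over the plastid-encoded genes they were 0.12, -0.39 and 0.22. The labels name no link between same-numbered arrays, and these correlations cannot show whether there was one. A replicate block was therefore run as an alternative only. No sequence is printed.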

Additional observations from a re-analysis of the deposited data

How the results depend on the processing

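The alternatives were cyclic loess, median centring, a trended and robust variance model, array weights, removal of the dimmest probe sets (up to the 40th percentile, rpoB among them), removal of _s_at and _x_at probe sets, a replicate block and leaving out each array. Averaging over probe sets was not run, since each rpo gene had 1. Wherever tested, the changes of rpoA, rpoB and rpoC2 lay below 0 and did not pass. For rpoC1 the call was made with the trended and robust variance model (-0.54), array weights (-0.50) and without dim probe sets (-0.54), and in no other. Leaving out 1 array gave changes of -0.28 to -0.16 for rpoA, -0.36 to -0.14 for rpoB, -0.63 to -0.38 for rpoC1 and -0.57 to -0.20 for rpoC2. It gave 963 to 2684 changed probe sets and 8 to 28 changed plastid-encoded genes, the lowest of both without mutant array 2, and 0 of the 3 nuclear genes. Further counts, 1380 when WT array 2 was left out and 1924 and 13 when mutant array 1 was, also lay more than 1.5 times below the reported 2985 and 20. With the replicate block 1233 probe sets and 13 plastid-encoded genes changed, 2 of them for ribosomal proteins, and rpoC1 had a limma adjusted p of 0.141, and no rpo call changed. Small differences turned direction with 1 array left out. That of rpoA and rpoB ran from -0.022 (WT array 2 or 3 left out) to 0.16, with -0.0083 for mutant array 3. That of rpoC1 and rpoC2 ran from -0.43 (WT array 2) to 0.087 (WT array 1), with 0.037 for WT array 3. Relative to the other plastid-encoded genes, a comparison added after the data were seen, rpoC1 ran from -0.27 (WT array 2) to 0.0081 (mutant array 1), with 0.0014 for WT array 1, and rpoC2 from -0.085 (WT array 1) to 0.16 (WT array 2), with 0.053 for mutant array 1. On that scale rpoC2 was at 0.072 after cyclic loess, and rpoB at -0.017 with the median signal as the reference. The cause was not tested. AT5G15700 ran from -0.12 (WT array 2 left out) to 0.10 (mutant array 3), with -0.057 for mutant array 1. Of the 12 named genes outside the rpo genes that passed, 4 kept the call in every alternative. The block ended the calls of rpl36, rpl16, rpl22, LHCB4.2 and AT1G10610 (limma adjusted p 0.0558 to 0.121), and atpI passed with it (0.0312). Median centring ended those of rpl16 and LHCB4.2 (0.0534 and 0.0631). The dim rpoB signal limits detection.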
